A study of Mus musculus with 16 samples.

Results

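The ATF4 stress response genes described here are 10 genes, namely Atf4, Asns, Trib3, Nupr1, Ddit3, Chac1, Sesn2, Psat1, Phgdh and Atf3. They were read from a list of names, drawn up with earlier results of these data known, as every probe set that carries exactly 1 gene symbol and whose symbol is among the 10. This gave 20 of the 20380 probe sets with 1 symbol, and 10 of the 12393 genes measured. RNA levels were read with Affymetrix Mouse 430A 2.0 arrays in J1 mouse embryonic stem (ES) cells, a line kept on gelatin with serum and leukemia inhibitory factor, in medium with added L-glutamine and non-essential amino acids. All 5 groups share this line and culture. The knockdown arm holds 2 arrays of cells with Tgif1 knocked down (Tgif1 KD) and 2 of shControl cells. The overexpression arm holds 4 arrays labelled Tgif1 OE, 4 labelled Tgif2 OE and 4 of BirA control cells, which overexpress BirA, a bacterial biotin ligase. The labels used here give no time after the perturbation, no promoter for the transgenes and no number of clones, and they leave unsaid if replicates came from separate cultures, so p-values measure the spread between these arrays, which may be technical. TGIF1 and TGIF2, the proteins whose genes were perturbed, are transcriptional repressors with a homeodomain.

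ATF4 is a transcription factor of the integrated stress response. When amino acids run short, unfolded proteins collect in the endoplasmic reticulum (ER) or heme is lacking, a kinase phosphorylates the translation factor eIF2alpha, most protein synthesis slows, and the Atf4 messenger RNA is translated better because of short reading frames upstream of its coding sequence. ATF4 then pairs with C/EBP family proteins on promoters and raises genes for amino acid synthesis, transport and tRNA charging, together with regulators that end or redirect the response, such as CHOP (the product of Ddit3), TRIB3 and ATF3. The arrays measure messenger RNA, not ATF4 protein or eIF2alpha phosphorylation.

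All values are log2 intensities, and a change is the difference between the means of 2 groups on that scale, given with its standard error (SE). A gene was called where its p, adjusted over all 12393 genes by the Benjamini-Hochberg method, was under 0.05 in limma's moderated test. In bulk samples such as these, fewer cells of a type and less RNA per cell cannot be told apart. On shControl arrays Tgif1 stood at 10.69 ± 0.04 (SD, n = 2) and on Tgif1 KD arrays at 7.29 ± 0.25 (SD, n = 2). Tgif2 rose in the knockdown by 0.81 ± 0.09 (adjusted p = 1.6e-05). Tgif1 was lower, not higher, on the arrays labelled Tgif1 OE (change -0.58 ± 0.07), and Tgif2 was not higher on those labelled Tgif2 OE (-0.01 ± 0.07). Tgif1 was also lower on the arrays labelled Tgif2 OE (-0.54 ± 0.07), and Tgif2 on those labelled Tgif1 OE (-0.45 ± 0.07). It is unknown if the array can see the transgene transcripts. The Tgif2 OE columns lay 0.12 log2 above BirA control at the median gene, and the submitters' processing notes name limma for them alone, so that processing and group cannot be told apart. Changes that involve them are therefore given relative to that median, and levels on single arrays as deposited. Within the overexpression arm, replicates 1 and 2 stood apart from replicates 3 and 4 in every group (root mean square difference 0.123 to 0.182 within these array pairs and 0.246 to 0.298 between them). For each gene the fit shared 1 spread over all 5 groups. SEs and p-values of the knockdown thus rest mostly on the overexpression arm and take in this gap between array pairs. The 8 ES cell markers were all above the median gene (6.96) in every group.

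In the Tgif1 knockdown 4 of the 10 genes rose and 0 fell: Atf4, Asns, Nupr1 and Ddit3, by 0.67 to 0.97 log2, or 1.59-fold to 1.96-fold. Among all genes 25.4% were called in this comparison, 12.5% as higher and 12.9% as lower. On the arrays labelled Tgif1 OE 7 of the 10 fell (Atf4, Asns, Trib3, Nupr1, Ddit3, Chac1 and Psat1, by 1.44-fold to 4.09-fold), and 1, Atf3, rose 1.72-fold, against 20.9% of all genes called, 9.51% as lower and 11.4% as higher. On the arrays labelled Tgif2 OE 7 fell and 1 rose, and they were the same genes, against 26.7% of all genes called, 13.0% as lower and 13.7% as higher. Both of these comparisons use the same 4 BirA control arrays, so their likeness is not independent evidence. The median change over the 10 genes was 0.12 in the knockdown, -0.65 on the arrays labelled Tgif1 OE and -0.72 on those labelled Tgif2 OE, where the medians over all genes were -0.04, 0.01 and 0.00.

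A change of at least 2-fold in addition was found for 0 of the 10 in the knockdown (3.19% of all genes), for 4 on the arrays labelled Tgif1 OE (1.69%) and for 3 on those labelled Tgif2 OE (1.36%). The counts rested on few arrays in the knockdown. Without shControl replicate 2 the knockdown calls fell to 2 of the 10 (Atf4 and Asns) and those among all genes from 3146 to 2012. With the Tgif2 OE columns as deposited, 81.1% of all calls against BirA control were higher (3559 higher and 829 lower) in place of 51.2% (1694 and 1616), yet the count among the 10 genes stayed at 1 higher and 7 lower.

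**Figure D1:**
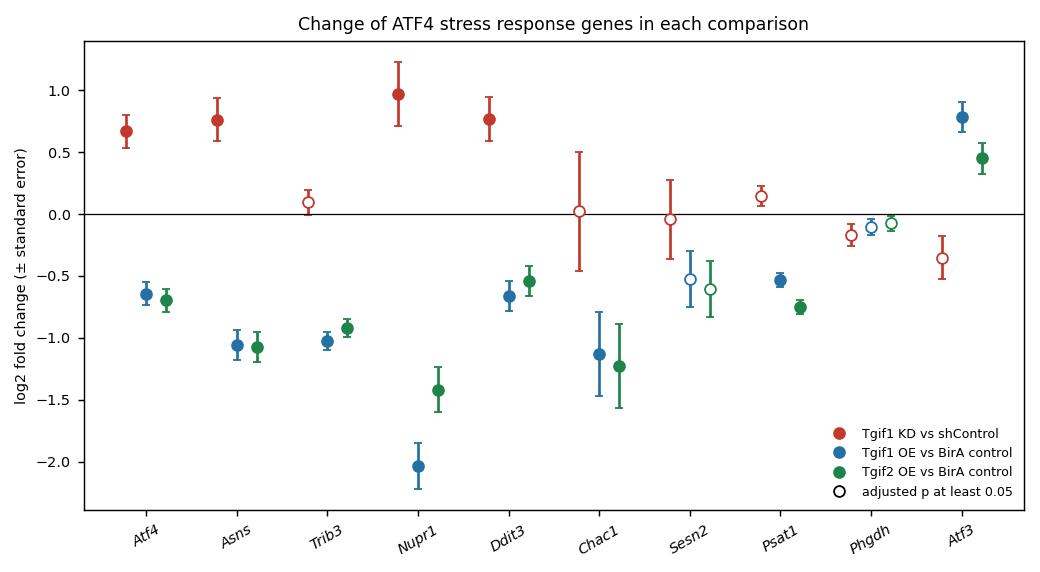
Log2 fold change (y axis) of each of the 10 genes (x axis) in Tgif1 KD against shControl (red, 2 and 2 arrays) and in the arrays labelled Tgif1 OE (blue) or Tgif2 OE (green) against BirA control (4 and 4 arrays each). Points are estimates from the fit, bars are ± 1 SE, and open points have an adjusted p of at least 0.05; the largest change drawn is that of Nupr1, -2.03 on the arrays labelled Tgif1 OE.

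Because Atf4, Asns, Nupr1 and Ddit3 were called both with Tgif1 knocked down and on the arrays labelled Tgif1 OE, their promoters are shown, each as the 300 bases from 250 before to 50 after the transcription start in the RefSeq annotation of GRCm38.p6, 5′ to 3′ on the gene's own strand. All 10 genes had such a window. Capitals mark TGATGNAA, the composite element that ATF4 binds together with a C/EBP partner, searched on both strands.
Atf4 (chr15:80254934-80255233, forward strand): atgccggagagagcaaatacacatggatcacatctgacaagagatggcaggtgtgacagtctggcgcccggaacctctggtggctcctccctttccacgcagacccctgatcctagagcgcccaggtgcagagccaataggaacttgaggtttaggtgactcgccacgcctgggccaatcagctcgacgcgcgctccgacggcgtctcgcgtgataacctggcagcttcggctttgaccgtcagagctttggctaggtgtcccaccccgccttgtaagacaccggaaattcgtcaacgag
Asns (chr6:7693160-7693459, reverse strand): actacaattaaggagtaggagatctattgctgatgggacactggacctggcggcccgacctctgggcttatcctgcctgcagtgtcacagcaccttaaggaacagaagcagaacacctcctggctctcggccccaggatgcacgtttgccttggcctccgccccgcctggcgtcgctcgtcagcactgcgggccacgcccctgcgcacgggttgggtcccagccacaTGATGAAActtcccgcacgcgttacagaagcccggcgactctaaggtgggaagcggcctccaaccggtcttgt
Nupr1 (chr7:126625421-126625720, reverse strand): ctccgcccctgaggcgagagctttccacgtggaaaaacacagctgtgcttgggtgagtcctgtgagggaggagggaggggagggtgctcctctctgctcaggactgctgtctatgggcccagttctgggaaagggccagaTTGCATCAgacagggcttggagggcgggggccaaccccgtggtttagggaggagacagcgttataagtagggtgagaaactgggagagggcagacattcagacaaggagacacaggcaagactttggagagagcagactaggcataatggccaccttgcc
Ddit3 (chr10:127290543-127290842, forward strand): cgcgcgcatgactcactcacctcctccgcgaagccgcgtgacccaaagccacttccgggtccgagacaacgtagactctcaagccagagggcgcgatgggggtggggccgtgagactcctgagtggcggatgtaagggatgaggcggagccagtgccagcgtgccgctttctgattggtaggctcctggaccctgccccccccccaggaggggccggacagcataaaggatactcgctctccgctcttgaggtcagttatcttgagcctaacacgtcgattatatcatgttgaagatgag
These letters occur in the windows of Asns (TGATGAAA, beginning 23 bases before the start) and Nupr1 (TTGCATCA, the other strand, 110 bases before), and not in those of Atf4 and Ddit3. Of the remaining members 3 hold them, shown next with 16 bases on either side because they are the other matches: Trib3 14 bases after the start, Chac1 193 before and Atf3 110 before.
Trib3: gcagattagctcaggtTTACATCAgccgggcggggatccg
Chac1: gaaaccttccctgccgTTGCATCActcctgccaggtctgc
Atf3: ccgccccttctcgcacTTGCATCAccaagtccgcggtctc
In all, 5 of the 10 genes hold TGATGNAA, as do 4.51% of the 27025 genes with such a window. The full cyclic AMP response element TGACGTCA, a site of ATF and CREB dimers, occurs in 0 of the 10 and in 2.03% of all genes. The 5 genes with a match hold members that fell against BirA control (Asns, Trib3, Nupr1 and Chac1) as well as the 1 that rose (Atf3). A match describes letters in this window and is not a measured binding site.

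Among the transcriptional regulators, the Atf4 messenger RNA itself stood at 11.78 and 11.72 on the shControl arrays and at 12.46 and 12.37 on the Tgif1 KD arrays. Both knockdown arrays were above both controls, by 0.67 ± 0.13 (adjusted p = 0.00159). Separation of 2 from 2 arrays says little alone. Trib3, Psat1, Phgdh and Atf3 were also separated in the knockdown without being called. On the 4 BirA control arrays, in the order of their numbers, Atf4 read 11.55, 11.49, 11.40 and 11.40. It read 10.97, 10.996, 10.66 and 10.65 on the arrays labelled Tgif1 OE and 11.03, 11.01, 10.70 and 10.80 on those labelled Tgif2 OE. Neither group overlapped the controls, and Atf4 was lower by 0.64 ± 0.09 (adjusted p = 1.86e-04) and by 0.69 ± 0.09 (adjusted p = 7.67e-05). The knockdown call and both falls held in each alternative tried, though the knockdown value was 0.28 as the mean of the gene's 3 probe sets.

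Ddit3 encodes CHOP, a C/EBP family factor that ATF4 induces and that promotes cell death under lasting stress. It stood at 7.68 and 7.41 on the shControl arrays and at 8.33 and 8.30 on the Tgif1 KD arrays, without overlap, a rise of 0.77 ± 0.18 (adjusted p = 0.00426). On the BirA control arrays it read 7.70, 7.40, 7.31 and 7.32, and on the arrays labelled Tgif1 OE 6.97, 6.86, 6.64 and 6.61. That fall of 0.66 ± 0.12 (adjusted p = 0.00133) separated all 4 arrays from the controls. The arrays labelled Tgif2 OE read 7.29, 7.13, 6.81 and 6.81, the highest of them just under the lowest control, a fall of 0.54 ± 0.12 (adjusted p = 0.00447). The knockdown call was lost without shControl replicate 2 (adjusted p = 0.0594), and the last call when array pairs were averaged (adjusted p = 0.0789).

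Nupr1 encodes a small chromatin-associated stress protein that is itself induced by ATF4, and it had the largest changes of the 10 in all 3 comparisons with a control. On the shControl arrays it read 8.46 and 8.31, and on the Tgif1 KD arrays 9.36 and 9.35, a rise of 0.97 ± 0.26 (adjusted p = 0.0121). That call was lost without either Tgif1 KD array or without shControl replicate 2 (adjusted p up to 0.0835). Nupr1 on the BirA control arrays read 7.57, 7.44, 7.68 and 7.79. The arrays labelled Tgif1 OE read 5.92, 5.74, 5.31 and 5.38, a fall of 2.03 ± 0.18 (4.09-fold, adjusted p = 3.13e-06), which was rank 1 among the falls of all 12393 genes. The arrays labelled Tgif2 OE read 6.80, 6.60, 5.88 and 6.004, a fall of 1.42 ± 0.18 (2.67-fold, adjusted p = 5.37e-05). In both groups all 4 arrays lay below all 4 controls, and the lowest were replicates 3 and 4.

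Atf3 encodes a stress-induced factor of the same bZIP family, which is also an immediate early gene, and it went the other way. It was dim, with a mean at the 36.7th percentile of probe sets. The shControl arrays read 5.36 and 5.34 and the Tgif1 KD arrays 4.92 and 5.07, a difference of -0.35 ± 0.17 that did not pass the threshold (adjusted p = 0.156). On the BirA control arrays it read 5.36, 5.01, 4.89 and 4.96, and on the arrays labelled Tgif1 OE 5.69, 5.88, 5.86 and 5.92. It rose there by 0.78 ± 0.12 (adjusted p = 3.27e-04), without overlap. The arrays labelled Tgif2 OE read 5.47, 5.34, 5.79 and 5.91, of which replicate 2 lay just under the highest control. That rise of 0.45 ± 0.12 (adjusted p = 0.0132) was lost in 5 of 30 alternatives, with adjusted p up to 0.696.

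Among the enzymes of amino acid synthesis, Asns encodes asparagine synthetase, a long-known ATF4 target. It read 12.65 and 12.60 on the shControl arrays and 13.35 and 13.42 on the Tgif1 KD arrays, a rise of 0.76 ± 0.17 (1.69-fold, adjusted p = 0.00441). On the BirA control arrays it read 12.24, 12.24, 11.93 and 11.95. With Tgif1 OE it read 11.17, 11.23, 10.90 and 10.84, a fall of 1.06 ± 0.12 (2.08-fold, adjusted p = 3.05e-05). With Tgif2 OE it read 11.33, 11.37, 10.86 and 10.98, a fall of 1.07 ± 0.12 (2.11-fold, adjusted p = 1.96e-05). No group overlapped its controls, and each of these calls held in every alternative tried.

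Psat1 and Phgdh encode enzymes of serine synthesis from a glycolytic intermediate, and they differed. Psat1, a transaminase, read 11.88 and 11.84 on the shControl arrays and 12.01 and 11.996 on the Tgif1 KD arrays, a difference of 0.14 ± 0.08 that did not pass (adjusted p = 0.203). In BirA control it read 11.95, 11.98, 11.88 and 11.86. The arrays labelled Tgif1 OE read 11.40, 11.34, 11.39 and 11.41 and those labelled Tgif2 OE 11.36, 11.38, 11.20 and 11.20. Psat1 was thus below every control on all 8 arrays, by 0.53 ± 0.06 (adjusted p = 1.15e-05) and by 0.75 ± 0.06 (adjusted p = 4.63e-07). Phgdh, the dehydrogenase of the first step, ranged from 11.23 to 11.58 over the 16 arrays and passed in none of these comparisons. Its differences were -0.17 ± 0.09 in the knockdown (95% interval -0.36 to 0.02), -0.11 ± 0.06 on the arrays labelled Tgif1 OE (-0.24 to 0.03) and -0.08 ± 0.06 on those labelled Tgif2 OE (-0.21 to 0.06).

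Of the other stress effectors, Trib3 encodes a pseudokinase that binds ATF4 and CHOP and dampens their activity. It read 8.81 and 8.76 on the shControl arrays and 8.94 and 8.82 on the Tgif1 KD arrays, a difference of 0.09 ± 0.10 that did not pass (95% interval -0.12 to 0.31). BirA control arrays lay between 8.60 and 8.68. With Tgif1 OE it read 7.79, 7.68, 7.51 and 7.52, a fall of 1.02 ± 0.07 (2.03-fold, adjusted p = 3.27e-07). With Tgif2 OE it read 7.90, 7.97, 7.78 and 7.76, a fall of 0.92 ± 0.07 (1.89-fold, adjusted p = 6.3e-07). The gap between each OE group and the BirA control arrays was wider than the range within either.

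Chac1 encodes a glutathione-degrading cyclotransferase induced through ATF4. Its shControl arrays, at 8.35 and 8.12, overlapped the Tgif1 KD arrays, at 8.33 and 8.18, and the difference was 0.02 ± 0.48 (95% interval -1.01 to 1.05). The SD was 0.163 within shControl and 0.109 within Tgif1 KD, so this interval mostly reflects the spread in the overexpression arm. In BirA control it read 7.94, 7.67, 7.33 and 7.39. The arrays labelled Tgif1 OE read 7.005, 7.09, 5.92 and 5.78, and those labelled Tgif2 OE 7.23, 6.95, 5.66 and 6.06. Every one of these 8 arrays was below the lowest control, and replicates 3 and 4 were lower than replicates 1 and 2 in each group. The changes were -1.13 ± 0.34 (adjusted p = 0.0278) and -1.23 ± 0.34 (adjusted p = 0.0148). The former call was lost in 6 of 29 alternatives, among them those without BirA control replicate 1 or 2 or Tgif1 OE replicate 3 or 4 (adjusted p up to 0.189 over all 29). The latter was lost without Tgif2 OE replicate 3 and when array pairs were averaged (adjusted p = 0.125).

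Sesn2 encodes Sestrin 2, a leucine-binding inhibitor of mTORC1 signalling that ATF4 induces. It read 8.90 and 8.88 on the shControl arrays and 8.91 and 8.78 on the Tgif1 KD arrays (difference -0.04 ± 0.32, 95% interval -0.72 to 0.63). The SD was 0.017 within shControl and 0.0939 within Tgif1 KD, so this interval too mostly reflects the overexpression arm. The BirA control values were 9.79, 9.60, 8.75 and 8.84, so that replicates 1 and 2 were higher than replicates 3 and 4 by 0.90. Sesn2 read 8.98, 9.04, 8.44 and 8.43 with Tgif1 OE and, with Tgif2 OE, 9.04, 8.92, 8.41 and 8.67, both overlapping the controls. The differences of -0.52 ± 0.22 (adjusted p = 0.12) and -0.60 ± 0.22 (adjusted p = 0.0587) did not pass. With the replicate number as a block they did, at adjusted p = 0.00139 and 4.71e-04. In the overexpression arm, however, the best match of an array lay within its pair, with the same number in 2 of 12 comparisons. Fits by array pair, chosen after seeing the data, also passed. Adjusted p was 3.98e-04 and 1.02e-04 with the pair as a fixed block. It was 0.0151 and 0.00723 with pairs averaged and the pair as a block. Both differences also passed without BirA control replicate 3 (adjusted p = 0.0441 and 0.0205), the latter also without BirA control replicate 4 or Tgif2 OE replicate 1.

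**Figure D2:**
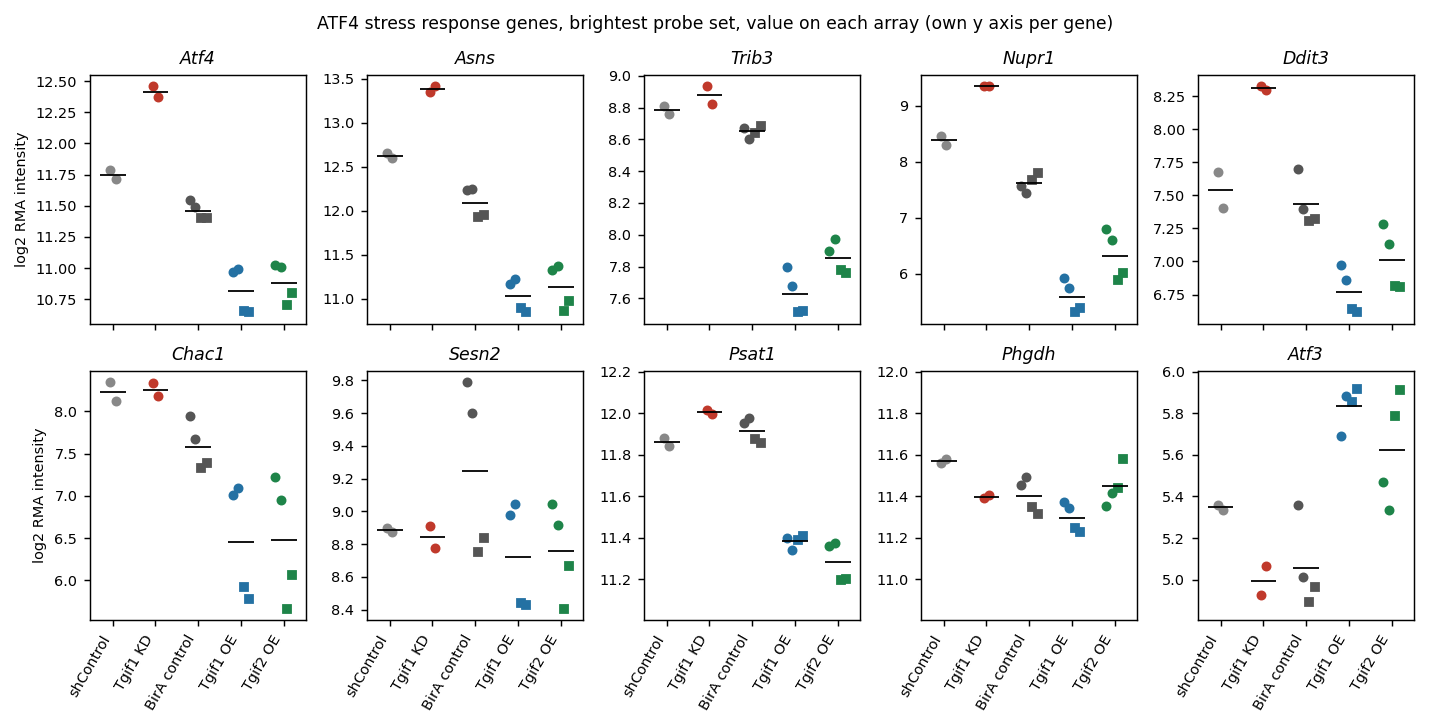
Log2 intensity (y axis, own scale per gene) of the brightest probe set of each of the 10 genes on every array of the 5 groups (x axis); lines are group means, circles are replicates 1 and 2, and squares are replicates 3 and 4 of the overexpression arm. Atf4, Asns and Nupr1 are highest on the Tgif1 KD arrays and lowest on the arrays labelled Tgif1 OE or Tgif2 OE, which read 5.31 to 6.80 for Nupr1, and Atf3 is highest on the latter.

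Atf4, Asns, Trib3, Nupr1, Ddit3 and Chac1 shared 1 order of group means as deposited, from Tgif1 KD through shControl, BirA control and Tgif2 OE down to Tgif1 OE. With the Tgif2 OE values set to the median gene, the last step turned for 3 of the 6, where Tgif1 OE lay above Tgif2 OE by 0.05 (Atf4), 0.02 (Asns) and 0.10 (Chac1), none of them called. Neighbours in this order did not all differ beyond their spread. The 2 OE groups overlapped for each of the 6 genes, shControl and BirA control overlapped for Ddit3, and Tgif1 KD and shControl overlapped for Chac1. The controls belong to different arms, and no test was made between them.

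Whether the knockdown effect differed from the effect on the arrays labelled Tgif1 OE was tested as a difference of the 2 effects. This difference was called as positive for 6 of the 10 genes and as negative for 1, where 27.6% of all genes were called, 13.0% as positive and 14.6% as negative. A call with a size of at least 2-fold in either direction was made for 6 of the 10, with Atf3 among them and Psat1 not, and for 6.78% of all genes. Its median was 1.14 over the 10 genes and -0.06 over all. Nupr1 differed by 3.0 ± 0.32 (adjusted p = 6.44e-06), rank 12 among the positive differences of all genes, and Asns by 1.82 ± 0.21 (adjusted p = 1.55e-05). Ddit3 (1.43 ± 0.21), Atf4 (1.31 ± 0.16), Trib3 (1.12 ± 0.12) and Psat1 (0.67 ± 0.10) followed. Of these, Trib3 and Psat1 did not pass in the knockdown alone. Atf3 was the 1 with the opposite sign (-1.13 ± 0.21, adjusted p = 8.89e-04). Chac1 (1.15 ± 0.59, adjusted p = 0.168) and Sesn2 (0.48 ± 0.39, adjusted p = 0.401) passed with the replicate number as a block, at adjusted p = 0.00632 and 0.0353. In the knockdown arm, however, same-numbered arrays did not deviate together (correlation -0.004). With the array pair as a fixed block, a fit chosen after seeing the data, they passed at adjusted p = 0.0028 and 0.0221. With only replicates 1 and 2 kept in the overexpression arm they passed at adjusted p = 0.0115 and 0.00342. With only replicates 3 and 4 Chac1 passed (adjusted p = 3.4e-04) and Sesn2 did not. The spread in these fits leaves out the gap between array pairs. Phgdh did not pass (-0.07 ± 0.11).

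Both OE groups were also compared with each other. Nupr1 was lower with Tgif1 OE than with Tgif2 OE by 0.62 ± 0.18 (adjusted p = 0.0464) and Psat1 higher by 0.22 ± 0.06 (adjusted p = 0.021), with overlapping arrays for both. These 2 of the 10 genes stand beside 9.84% of all genes called, 5.62% as higher and 4.22% as lower, and 0 of the 10 reached 2-fold, as did 0.121% of all genes. The Nupr1 call was lost in 17 of 30 alternatives and the Psat1 call in 11 of 30, and without Tgif1 OE replicate 3 or 4 there were 0 of the 10. Among all genes 1220 were called, 799 without Tgif2 OE replicate 1 or 2, and 2121 with the replicate number as a block. As deposited, the calls split into 279 higher and 2160 lower in place of 697 and 523, and the 2 members called were Nupr1 and Trib3, both lower. For Asns the difference was 0.02 ± 0.12 (95% interval -0.25 to 0.28) and for Atf4 0.05 ± 0.09 (-0.15 to 0.25).

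Changes were then taken within each array pair, by a fit with a mean per group and pair. For Asns, Psat1 and Ddit3 both pairs gave a like fall on the arrays labelled Tgif1 OE: -1.04 and -1.07 for Asns, -0.59 and -0.47 for Psat1, and -0.63 and -0.69 for Ddit3, replicates 1 and 2 first. The change of Nupr1 there was -1.68 ± 0.09 in the former pair and -2.39 ± 0.09 in the latter, and -0.92 ± 0.09 and -1.91 ± 0.09 with Tgif2 OE. Chac1 was at -0.76 ± 0.14 and -1.51 ± 0.14, and at -0.84 ± 0.14 and -1.62 ± 0.14. Atf3 rose by 0.60 ± 0.11 and 0.96 ± 0.11 on the arrays labelled Tgif1 OE. On those labelled Tgif2 OE it rose in replicates 3 and 4 (0.80 ± 0.11, adjusted p = 1.55e-04), while the value in replicates 1 and 2 did not pass (0.10 ± 0.11, adjusted p = 0.541). Within pairs Sesn2 was lower in all 4 cases (-0.68 and -0.36 for Tgif1 OE, -0.83 and -0.38 for Tgif2 OE, adjusted p up to 0.0124), and Phgdh in replicates 1 and 2 of Tgif2 OE only (-0.21 ± 0.05, adjusted p = 0.012). The difference between pairs was called for Nupr1 with Tgif1 OE, where 3.91% of all genes were, and for Nupr1, Chac1 and Atf3 with Tgif2 OE, where 6.06% were. Within pairs 26.7% to 33.9% of all genes were called, and the 2 arrays of a pair may be technical repeats.

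**Figure D3:**
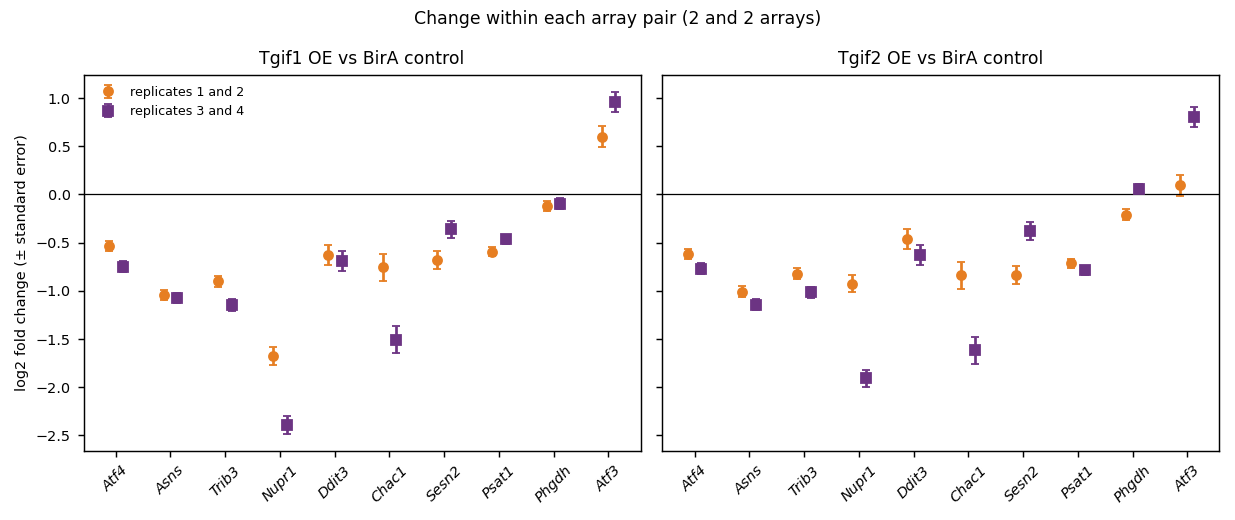
Log2 fold change (y axis) against BirA control of each of the 10 genes (x axis) within replicates 1 and 2 (orange circles) and within replicates 3 and 4 (purple squares), for the arrays labelled Tgif1 OE (left) and Tgif2 OE (right), 2 against 2 arrays each; bars are ± 1 SE. The pairs lie close together for Asns (-1.04 and -1.07 on the left) and apart for Nupr1, Chac1 and, on the right, Atf3.

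Further probe sets of the members mostly gave like values. The second probe sets of Asns and Nupr1 passed in the same comparisons, with -1.04 and -1.87 on the arrays labelled Tgif1 OE and 0.75 and 0.86 in the knockdown. Those of Trib3 (-0.73) and Psat1 (-0.45) also fell on the arrays labelled Tgif1 OE, though that of Psat1 did not pass between the arrays labelled Tgif1 OE and Tgif2 OE (0.14, adjusted p = 0.429). The second Atf4 probe set fell by 0.67 ± 0.13 on the arrays labelled Tgif1 OE, but its knockdown value of 0.35 ± 0.19 did not pass (adjusted p = 0.209). Another Atf4 probe set was dim (mean 4.23, at the 20.5th percentile) and did not pass in any comparison. All 3 further Phgdh probe sets, like the second of Sesn2, passed in none. Probe sets that carry the symbol of Phgdh together with that of a pseudogene were left out.

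The wider pathway was read from lists of related genes. The count of each list stands beside the shares of all genes called. In the knockdown these were 12.5% higher and 12.9% lower. On the arrays labelled Tgif1 OE they were 11.4% and 9.51%, and on those labelled Tgif2 OE 13.7% and 13.0%. Of 12 measured genes for eIF2alpha kinases, other eIF2 regulators such as eIF2B subunits, and C/EBP or ATF partners, 4 rose and 0 fell in the knockdown. Not all of these act upstream of ATF4. The partner factor Atf5 rose by 1.98 ± 0.10 (adjusted p = 7.32e-09), Impact, an inhibitor of the kinase GCN2, by 0.99 ± 0.15, and Eif2ak3, the ER stress kinase PERK, by 0.70 ± 0.14 (0.26, adjusted p = 0.12, as the mean of its probe sets). On the arrays labelled Tgif1 OE 0 rose and 4 fell, with Eif2ak3 at -0.33 ± 0.10 (-0.12, adjusted p = 0.375, as the mean of its probe sets), Eif2b1 at -0.30 ± 0.05 and Eif2b5 at -0.23 ± 0.05. Of these 4 calls 2 were left without Tgif1 OE replicate 2, 3 or 4, and 0 when array pairs were averaged. On the arrays labelled Tgif2 OE 0 rose and 6 fell, led by Eif2ak3 (-1.03 ± 0.10, adjusted p = 5.7e-06) and Eif2ak4, which encodes GCN2 (-0.51 ± 0.08). Both kinase genes were higher on the arrays labelled Tgif1 OE than on those labelled Tgif2 OE, by 0.71 ± 0.10 and 0.50 ± 0.08 (adjusted p = 6.81e-04 and 0.00147).

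Aminoacyl-tRNA synthetases charge tRNAs with their amino acids. The cytosolic ones listed as part of the ATF4 response had the highest share of calls among the lists of related genes in the overexpression arm. Of 11 measured cytosolic members 9 fell and 0 rose on the arrays labelled Tgif1 OE, and likewise on those labelled Tgif2 OE, and these counts stayed at 9 with any 1 array left out. Their median was -0.41 in the former, where that of all genes was 0.01, and -0.41 in the latter, where it was 0.00. Yars fell by 0.73 ± 0.06 and 0.80 ± 0.06, Cars by 0.67 ± 0.07 and 0.67 ± 0.07, and Sars by 0.62 ± 0.06 and 0.61 ± 0.06. In the knockdown 4 rose and 0 fell, with Cars at 0.44 ± 0.10, Yars at 0.31 ± 0.09 and Gars at 0.29 ± 0.09, but 1 was called without Tgif1 KD replicate 1 or shControl replicate 2.

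Of 10 measured enzymes of serine, one-carbon, proline, transamination and transsulfuration reactions, 5 fell and 0 rose on the arrays labelled Tgif1 OE and on those labelled Tgif2 OE. The transaminase genes Gpt2 (-0.71 ± 0.09) and Got1 (-0.53 ± 0.08) and the serine synthesis gene Psph (-0.62 ± 0.10) were the largest on the former. Psph (-0.91 ± 0.10) and the proline synthesis gene Aldh18a1 (-0.63 ± 0.07) led on the latter. In the knockdown 2 rose and 1 fell: Cth, which makes cysteine from cystathionine (1.51 ± 0.18, adjusted p = 1.8e-05), Got1 (0.51 ± 0.11) and Shmt1 (-0.55 ± 0.07).

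Amino acid transporters bring in the substrates of these enzymes and synthetases. Of 9 measured that were listed as part of the ATF4 response, 1 rose in the knockdown, where 12.5% of all genes did. It was Slc3a2 (0.53 ± 0.09), the heavy chain shared by several exchangers. With Tgif1 OE 4 fell, among them Slc1a5 (-0.32 ± 0.09), Slc7a3 (-0.32 ± 0.09) and Slc3a2 (-0.30 ± 0.07), and 1 rose, but only 1 of these 5 calls was made without Tgif1 OE replicate 3 and 0 when array pairs were averaged. With Tgif2 OE 0 fell and 1 rose, Slc38a2 at 0.18 ± 0.06, which did not pass in 19 of 30 alternatives.

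Of 9 other reported ATF4 targets, 4 rose and 1 fell in the knockdown, among them Ddit4, an mTORC1 inhibitor (1.29 ± 0.35, adjusted p = 0.0139), the lipoprotein receptor gene Vldlr (0.91 ± 0.12) and Stc2 (0.52 ± 0.11). These 5 calls became 3 without Tgif1 KD replicate 1 or shControl replicate 1, and that of Ddit4 was also lost without Tgif1 KD replicate 2. With Tgif1 OE 3 fell and 1 rose, with Stc2 (-0.54 ± 0.08) and Vegfa (-0.54 ± 0.16) lower and the death receptor gene Tnfrsf10b (0.29 ± 0.08) higher. With Tgif2 OE 2 fell and 1 rose: Herpud1 (-1.04 ± 0.32), Stc2 (-0.59 ± 0.08) and Tnfrsf10b (0.40 ± 0.08). The values of Vegfa and Herpud1 did not pass in 6 alternatives each, among them those without replicate 3 or 4 of the OE group or BirA control replicate 1 or 2. The Tnfrsf10b rise with Tgif1 OE was also lost in 6, among them quantile normalization and those without BirA control replicate 4 or Tgif1 OE replicate 1 (adjusted p up to 0.149).

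Genes of the ER chaperone arms of the unfolded protein response are controlled by ATF6 and XBP1, beside the branch that runs through ATF4. In the knockdown 10 of 14 rose and 0 fell, with Atf6 (0.70 ± 0.10), Xbp1 (0.52 ± 0.12) and Sel1l (0.50 ± 0.14) the largest, and 4 were called without Tgif1 KD replicate 2. With Tgif1 OE 2 of 14 fell and 0 rose (Xbp1 at -0.46 ± 0.09 and Pdia4 at -0.18 ± 0.05), 1 of them without Tgif1 OE replicate 2. With Tgif2 OE 2 rose and 2 fell, with Sel1l at -0.53 ± 0.10, Atf6 at -0.30 ± 0.07 and Hsp90b1 at 0.26 ± 0.07, and 2 of these 4 were called without Tgif2 OE replicate 3. With the Tgif2 OE columns as deposited 7 were called, and the Atf6 call was lost. The Pdia4 call was lost in 9 alternatives (adjusted p up to 0.394) and the Hsp90b1 call in 8 (up to 0.349). For both genes the mean of the probe sets was among these.

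**Figure D4:**
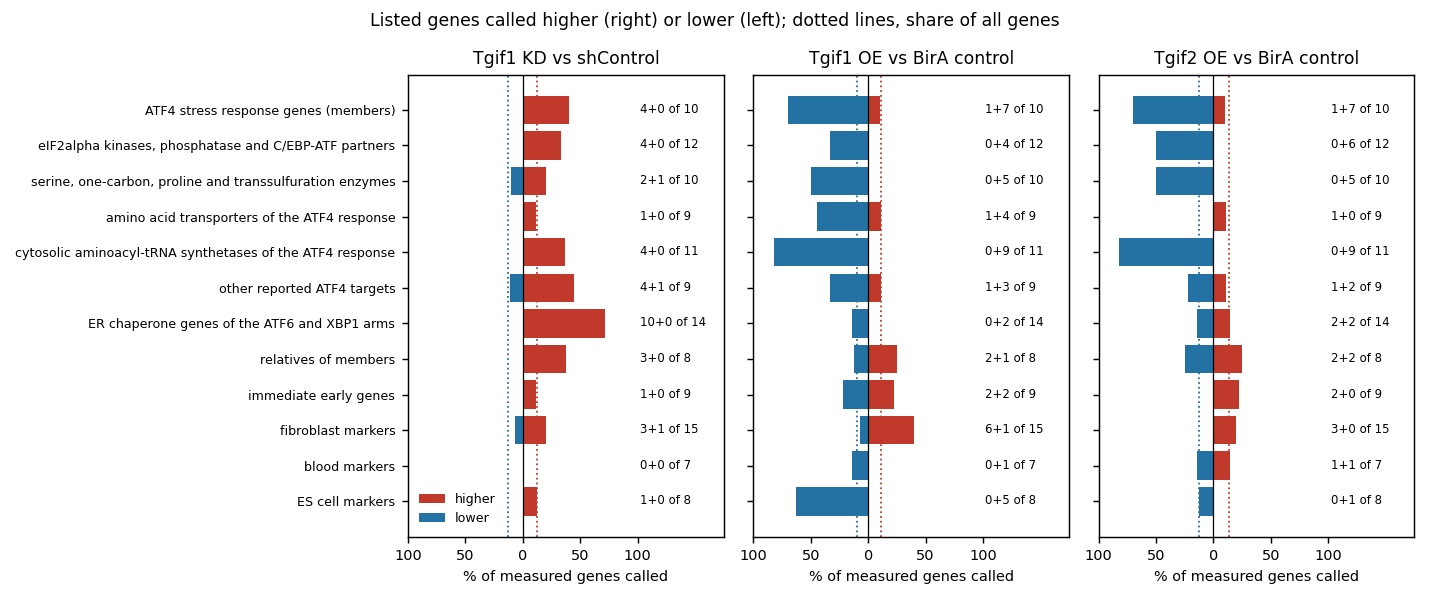
Share (x axis) of the measured genes of each list (y axis) called higher (red, to the right) or lower (blue, to the left), in percent, in Tgif1 KD against shControl and in the arrays labelled Tgif1 OE or Tgif2 OE against BirA control; dotted lines are the shares among all genes, and the labels beside the bars give the genes called higher and lower of those measured. The members and the tRNA synthetases reach furthest to the left in the overexpression arm, with 7 of 10 and 9 of 11, and the ER chaperone genes furthest to the right in the knockdown, with 10 of 14.

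**Figure D5:**
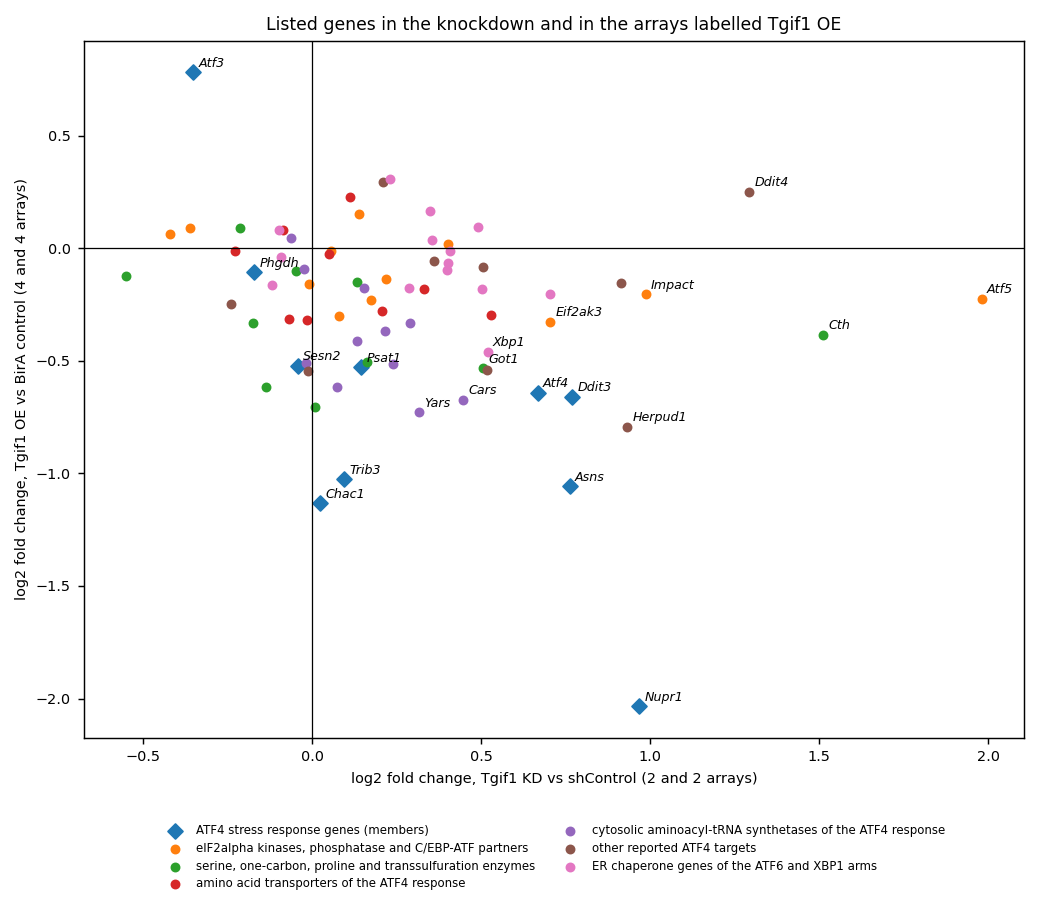
Log2 fold change on the arrays labelled Tgif1 OE against BirA control (y axis, 4 and 4 arrays) plotted on that in Tgif1 KD against shControl (x axis, 2 and 2 arrays) for the 10 genes (diamonds) and the genes of 6 related lists (circles). Nupr1 (0.97 and -2.03), Asns, Atf4 and Ddit3 lie to the lower right, Trib3 and Chac1 near 0 on the x axis, Atf3 to the upper left, and Atf5 (1.98) furthest to the right.

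Some relatives of the members moved against them. Of 8 measured, Sesn3 rose by 0.92 ± 0.12 on the arrays labelled Tgif1 OE and by 0.74 ± 0.12 on those labelled Tgif2 OE, and Trib1 by 0.52 ± 0.12 and 0.42 ± 0.12, where Trib3 fell. The Trib1 calls were lost as the mean of its probe sets, and the latter also without Tgif2 OE replicate 4. In all 2 rose and 1 fell in the former and 2 rose and 2 fell in the latter (2 of these 4 calls without Tgif2 OE replicate 4). In the knockdown 3 rose and 0 fell, among them the AP-1 repressor gene Jdp2 (1.60 ± 0.21), which fell on the arrays labelled Tgif1 OE (-0.73 ± 0.15), and only 1 was called without Tgif1 KD replicate 1, Tgif1 KD replicate 2 or shControl replicate 2.

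Since Atf3 is also an immediate early gene, 9 other such genes were read beside it. Jun rose where Atf3 did, by 1.66 ± 0.22 on the arrays labelled Tgif1 OE and by 1.49 ± 0.22 on those labelled Tgif2 OE. Of the 9, 2 rose and 2 fell in the former (2 of these 4 calls without BirA control replicate 2) and 2 rose and 0 fell in the latter. In the knockdown Fos rose by 1.93 ± 0.23 and was the 1 of the 9 that passed, where 25.4% of all genes did.

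Markers of other cells and signs of RNA quality moved with some groups. Fibroblast markers, 15 in all, had a summed level of 10.66 to 10.93 log2 on BirA control arrays, 11.24 to 11.92 on those labelled Tgif1 OE and 11.31 to 11.97 on those labelled Tgif2 OE, and 11.56 to 11.63 on Tgif1 KD against 11.14 to 11.18 on shControl arrays. The mean log2 level of the 15, in which bright genes weigh less, went the other way in the knockdown. It was 5.231 to 5.267 on Tgif1 KD against 5.291 to 5.339 on shControl arrays. In the overexpression arm it went with the sum, at 4.985 to 5.212 on BirA control, 5.466 to 5.858 on Tgif1 OE and 5.372 to 5.827 on Tgif2 OE arrays. In the knockdown 3 of the 15 rose and 1 fell, where 25.4% of all genes were called. With Tgif1 OE 6 of the 15 rose and 1 fell, and with Tgif2 OE 3 rose and 0 fell, with Tagln (3.48 and 2.46) the largest. Means of the 15 over all arrays ran from 2.96 (Lum) to 10.51 (Vim), and 12 to 14 of them lay below the median gene in each group. Of 8 ES cell markers 5 fell on the arrays labelled Tgif1 OE, among them Esrrb (-1.08) and Nanog (-0.69), and 1 on those labelled Tgif2 OE, though 2 were called among the former without BirA control replicate 1 or Tgif1 OE replicate 4, and 0 of the latter without BirA control replicate 1 or 2 or Tgif2 OE replicate 3 or 4. Blood markers gave 0 to 2 calls of 7. The 5′ minus 3′ signal of the Gapdh control was -0.10 to -0.08 on Tgif1 KD and -0.22 to -0.21 on shControl arrays, so the knockdown groups did not overlap in it, while the groups of the overexpression arm did. The part of these differences in the changes of the ATF4 response genes was not tested.

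By a fixed rule, the 5 genes whose values over the 16 arrays lay closest to those of Asns, each taken from its own mean, were Hebp1 (root mean square difference 0.169 log2), Pck2 (0.172), Pde9a (0.19), Serpinb1a (0.212) and Smarcd3 (0.222), among 1250 genes that varied at least 0.5 times as much as Asns. Pck2, the mitochondrial PEP carboxykinase, averaged 9.79 on Tgif1 KD, 9.38 on shControl, 8.33 on BirA control, 7.61 on Tgif2 OE and 7.34 on Tgif1 OE arrays. The members lay further from Asns by this measure, from Atf4 at 0.299, Chac1 at 0.377, Ddit3 at 0.382 and Trib3 at 0.405 to Phgdh at 0.806 and Atf3 at 1.15. The measure is not scaled, so it takes in the size of variation as well as its pattern. The SD over the 16 arrays was 0.865 for Asns, 1.34 for Nupr1 and 0.107 for Phgdh. Sesn2, Psat1, Phgdh and Atf3 varied less than 0.5 times as much as Asns and could not be among the 1250. These values describe 16 arrays in 5 groups and share the arrays' normalization.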

How the data were processed

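Total RNA of 16 samples in 5 groups was hybridised to 1-colour Affymetrix arrays. The values are log2 intensities that the authors deposited in the series' value table, RMA values by the submitters' processing notes, which name limma beside RMA for the Tgif2 OE arrays, with no version given in the sources used here. They ran from 2.19 to 14.79. All value columns were used, and detection calls were not used here. Of 22690 probe sets, 64 were controls, 20380 had 1 gene symbol in the platform annotation of 2016, 691 several and 1555 none. Each of 12393 genes was represented by its brightest probe set on average (4956 had more than 1), with no filter on dim genes. Symbols are those of the annotation.

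Limma 3.58.1 (R 4.3.3) fitted group means over the 16 arrays, with eBayes, and left 11 residual and 3.66 prior degrees of freedom, and p-values were adjusted over all genes (Benjamini-Hochberg, threshold 0.05). The Tgif2 OE columns were lowered by 0.12, the median change of all genes. The code was tested on simulated data. The number of arrays limits the precision.

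The members and all gene lists were chosen with earlier results of these data known. Besides the members, Tgif1 and Tgif2, the genes named are up to 3 called genes with the largest absolute change per list and comparison, and the 5 closest to Asns. Promoters shown are those of members called in both the Tgif1 KD and the Tgif1 OE comparison. A few listed genes given for contrast were chosen after their values were seen.

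Replicate numbers come from the labels. In the overexpression arm same-numbered arrays deviated together (correlation 0.319 to 0.556 in all 12 comparisons). The own number was the best match in 2 of the 12, while the best match always lay in the same array pair. These values show array pairs and do not show that single numbers pair the arrays. The replicate number as a block was therefore used as an alternative only. In the knockdown arm the correlation was -0.004. Alternatives covered normalization, dim genes, probe set choice, the variance model, the arrays fitted, blocks, pair averages and leaving out each array.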

Additional observations from a re-analysis of the deposited data

Results flagged for a closer look

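The effect of the arrays labelled Tgif1 OE or Tgif2 OE against BirA control was compared between replicates 3 and 4 and replicates 1 and 2, by an interaction term in limma adjusted over all genes, where 3.91% of all genes passed for Tgif1 OE and 6.06% for Tgif2 OE. For Nupr1 the difference between the pairs was -0.715 (adjusted p = 0.0128) for Tgif1 OE and -0.985 (adjusted p = 0.00128) for Tgif2 OE, so that it was lower by more in replicates 3 and 4. For Chac1 it was -0.779 for Tgif2 OE (adjusted p = 0.045). The Chac1 value for Tgif1 OE was close to it, -0.75, and did not pass (adjusted p = 0.0639). For Atf3 it was 0.707 for Tgif2 OE (adjusted p = 0.0193). Both OE groups share the BirA control arrays. What sets the array pairs apart is not given in the labels, and its part in these differences was not tested. Among 30 groups of 4 arrays checked, 0 had an array further from the others than Dixon's 95% critical value, which chance exceeds in about 1 group in 20. That rate is for 4 independent arrays. These stand in array pairs, and an array close to its partner is hardly flagged, so the count of 0 says little about outliers.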

How the results depend on the processing

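Over 50 pairs of a member and a comparison, 1362 of 1470 values under an alternative kept direction and side of the threshold, 46 lost the call, 33 gained it and 29 changed sign. Of those that changed sign none was called either way. The cause of a moved value was not tested. By construction, averages and single pairs use fewer arrays. Also by construction, the knockdown arrays stay the same where a single pair is kept or the array pair is a fixed block. In those fits the spread shared over the groups leaves out the gap between array pairs. Tgif1 KD calls among all genes (3146) were 4975 with only replicates 1 and 2 kept in the overexpression arm, 5185 with only 3 and 4 (7 members), 4725 with array pair as a fixed block and 395 at 2-fold or more (0 members), and 2012 to 3206 (2 to 4 members) with each array left out. Tgif1 OE calls (2587) were 1419 with the pair as a random block, 802 with pairs averaged, 4101 with the fixed block and 209 at 2-fold (4 members), and 2053 to 2600 (7 to 9 members) with each array left out. Tgif2 OE calls (3310) were 1765 with the random block, 1132 averaged (5 members) and 168 at 2-fold (3 members), and 2772 to 3331 (7 to 9) with each array left out. Calls between both OE groups (1220) were 2439 as deposited, 2121 with the replicate number as a block, 267 with the random block (0 members), 1956 with replicates 1 and 2 alone, 48 averaged (0 members), 479 averaged with the pair as a block (0 members), 2739 with the fixed block and 15 at 2-fold (0 members), and 799 to 1247 (0 to 2 members) with each array left out. Members called there were 1 with the mean of probe sets and 0 with only the groups compared. Calls for the difference of the knockdown and Tgif1 OE effects were 840 at 2-fold and 2495 to 3426 (7 members throughout) with each array left out. The replicate number as a block added Sesn2 against BirA control and Sesn2 and Chac1 for the difference of effects, and changed no other member call. The array pair as a fixed block added the same calls. Chac1 in the knockdown was -0.001607 with quantile normalization and -0.09293 to 0.137 with each array left out, and Sesn2 -0.1092 to 0.02357. Phgdh on Tgif2 OE was 0.04418 as deposited and 0.08117 in replicates 3 and 4. Between the OE groups, Atf4 was -0.06692, Asns -0.1025, Chac1 -0.02342 and Sesn2 -0.03739 as deposited. Asns was also -0.01016 by the mean of probe sets and -0.01312 in replicates 1 and 2, where Phgdh was 0.1148. Atf4 was -0.001712 and Sesn2 -0.007652 in replicates 3 and 4. With each array left out, Asns ran from -0.072 to 0.09623, Atf4 from -0.007009 to 0.1097, Chac1 from -0.1721 to 0.3458, Phgdh from -0.06232 to 0.01583 and Sesn2 from -0.03414 to 0.1801. Of 3656 values for other listed genes, 3359 kept their call, 297 lost it and 0 changed sign. Both fits with pair blocks beside the random one were chosen after seeing the data. Dim genes such as Atf3 are read near background, which limits their fold changes.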
